A study of Rattus norvegicus with 4 samples.

Results

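The genes described here encode the proteasome, the protease complex that degrades ubiquitin-tagged proteins, together with its activators, its inhibitor and its assembly chaperones. Members were taken by symbol, as rat RefSeq genes whose symbol begins with Psm, a letter from a to g and a digit, and were matched to array probes through the accession that the files give for each probe. The pattern took 102 symbols, of which 54 are protein-coding and 48 are pseudogenes. A probe was matched for 47 of the 54 protein-coding genes, out of 16581 named genes on the arrays, and for 0 of the 48 pseudogenes. Psmb11, Psmg1, Psmg3, Psmb3l1, Psmb3l2, Psmb6l1 and Psmg4l1 were not matched to a probe and are named only. The pattern also takes Psmc3ip and Psme3ip1, which encode proteins named for binding a proteasome protein and are not subunits, so that 45 of the 47 members fit the description of subunit, activator, inhibitor or chaperone.

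RNA came from NR8383 cells, a continuous rat alveolar macrophage line started from cells washed out of the lung of a normal rat, which had been given Printex 90, a carbon black made of nanoparticles, for 4 h at 0.9 cm2/cm2. The cells had been through 20 passages and were seeded for 48 h. All 4 biological replicates belong to this exposed group, each on its own 1-colour Agilent array. Particle-free incubations were not analysed here. No effect of carbon black was therefore estimated, and each value is a level under exposure or its spread between replicates. A cell line carries no other cell types, and the labels do not say whether the replicates came from separate thaws, so the spread covers only what differed between these 4 samples.

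In the proteasome, a 20S barrel does the cutting. Its outer rings are built of alpha subunits (Psma genes), which gate the entry, and its inner rings of beta subunits (Psmb genes), among them the catalytic subunits Psmb5, Psmb6 and Psmb7. A 19S cap recognises, unfolds and feeds in the substrate with a ring of ATPases (Psmc genes) and a set of non-ATPase subunits (Psmd genes). Interferon-gamma makes cells build an immunoproteasome, in which Psmb8, Psmb9 and Psmb10 take the places of Psmb5, Psmb6 and Psmb7, and which favours peptides that fit class I major histocompatibility molecules. Cells of the blood lineage, macrophages among them, are known for carrying immunoproteasomes without that stimulus.

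The arrays themselves were checked once. Level is log2 of the processed intensity with the 75th percentile of the same array's probes set to 0, and a probe counts as well above background where the scanner software set that mark on at least 50% of its spots. Of 45598 probes, 17079, 18641, 17319 and 17084 carried the mark on replicates 1 to 4. Background stood higher on replicate 1, where the 99th percentile of negative control spots was 27.1 against 7.40, 4.95 and 6.25 on the others. Of 10 listed macrophage markers, 8 were well above background on all arrays, among them Cd68 and Spi1, while Marco and Adgre1 were so on none. All 17 measured markers of alveolar type 2 cells, other epithelium, T cells, B cells, fibroblasts and endothelium were well above background on no array. Probes bind with different strength, so levels of different genes are not compared with each other.

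Nearly the whole proteasome was measured above background in the exposed macrophages. Of the 47 members, 45 were well above background on all 4 arrays, Psmd10 on 2 and Psma8 on 0. The share was 95.7%, against 48.0% of all named genes. All 7 standard beta subunits, all 3 immunoproteasome subunits, all 6 ATPases, all 11 non-ATPase subunits and all 5 genes of the activator and inhibitor group were detected on every array, as were 7 of 8 alpha subunits, 2 of 3 19S assembly chaperones and 2 of 2 20S assembly chaperones. No spot of any gene was saturated, and the processed intensity of the 45 members detected on all arrays lay between 89.8 and 20023.

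**Figure D1:**
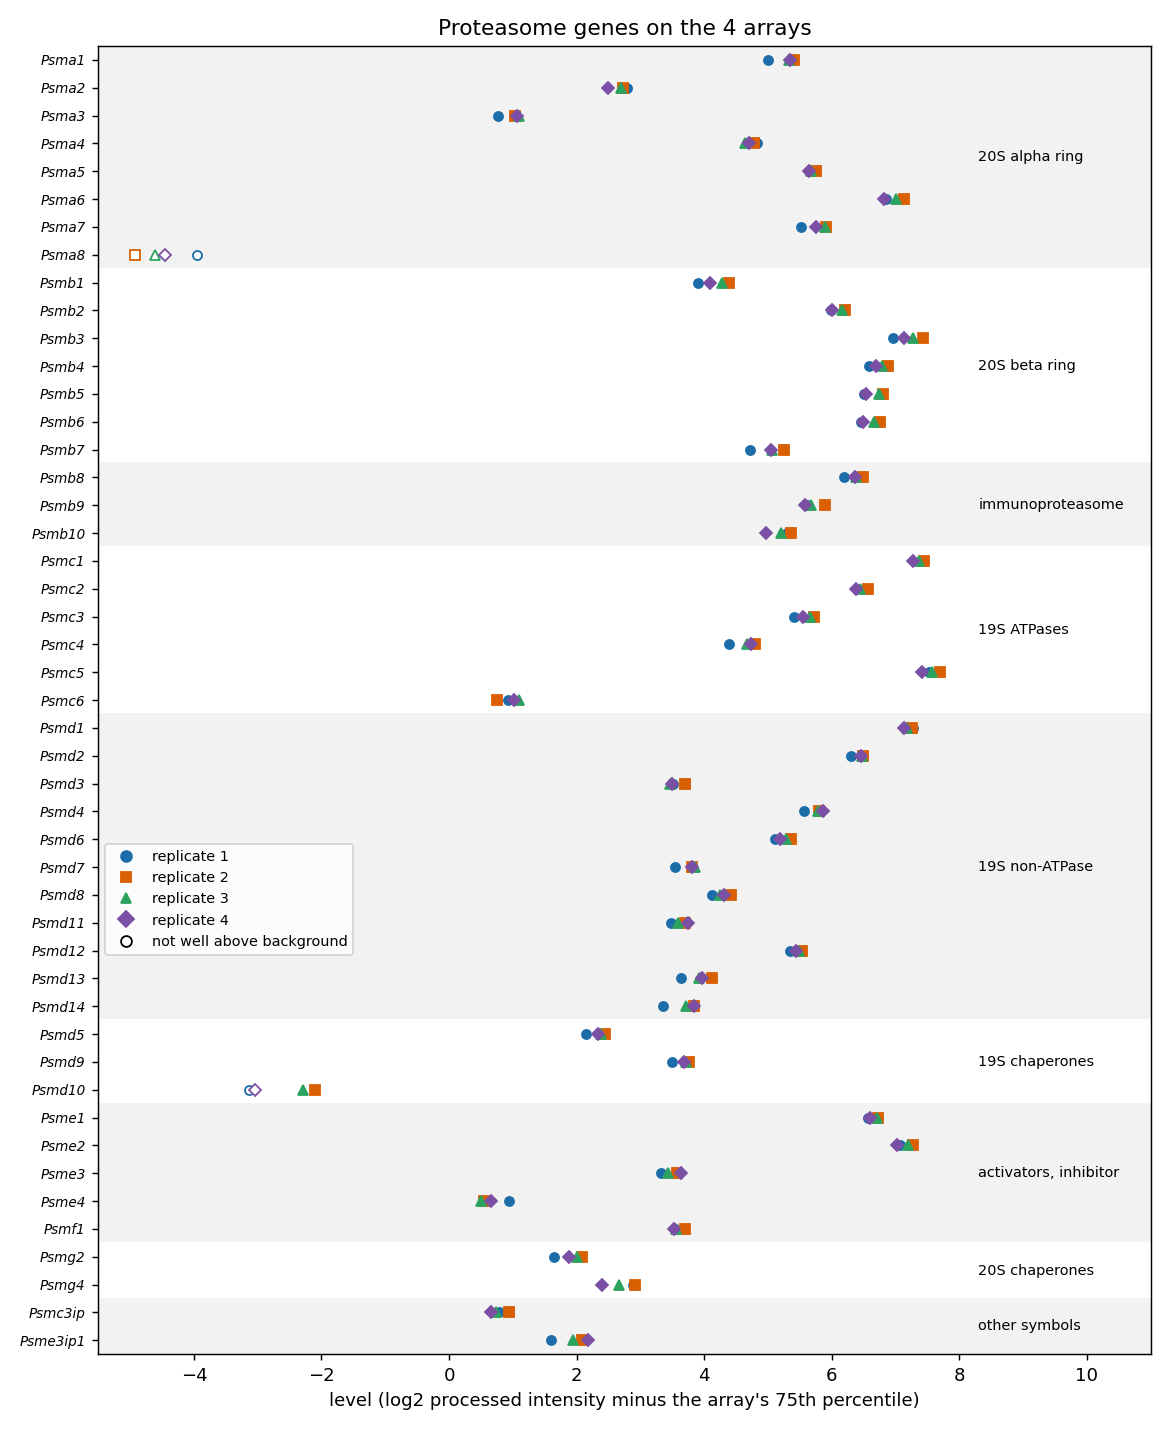
Level of each of the 47 members on each array, by role, with x in log2 units relative to the array's 75th percentile. Marker shapes are the 4 replicates, and open markers are values not well above background; filled markers of a gene mostly lie within 0.5 of each other, and open ones appear only for Psma8 and Psmd10.

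The catalytic subunits come first, since the immunoproteasome members are set beside the standard ones they replace. Their promoters, from RefSeq build GRCr8, differ in which known elements they hold, and the ones that hold an element are printed here, from 250 bases before to 50 bases after the gene's start. Capitals mark a match, on either strand, to any of the following elements. The core of the antioxidant response element (TGACNNNGC) is bound by the proteasome regulators NRF1 and NRF2. The core of the interferon-stimulated response element is the letters G, A, A and A, any 2 bases, then G, A, A and A again. The last is the gamma-activated site (TTCNNNGAA). No other letters are capital. In the printed Psmb10 and Psme2 windows, each group of digits inside a match is not a value and stands in for the letters A, A and A. The matches of these genes are spelled out below the sequences.
Psmb5, chr15:32047330-32047629, minus strand: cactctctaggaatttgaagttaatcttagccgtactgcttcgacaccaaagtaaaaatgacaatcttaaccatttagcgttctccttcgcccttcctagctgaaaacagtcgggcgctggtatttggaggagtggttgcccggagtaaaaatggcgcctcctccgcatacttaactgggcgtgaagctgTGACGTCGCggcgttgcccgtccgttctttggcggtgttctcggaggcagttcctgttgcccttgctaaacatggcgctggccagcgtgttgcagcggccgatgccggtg
Psmb6, chr10:55737638-55737937, plus strand: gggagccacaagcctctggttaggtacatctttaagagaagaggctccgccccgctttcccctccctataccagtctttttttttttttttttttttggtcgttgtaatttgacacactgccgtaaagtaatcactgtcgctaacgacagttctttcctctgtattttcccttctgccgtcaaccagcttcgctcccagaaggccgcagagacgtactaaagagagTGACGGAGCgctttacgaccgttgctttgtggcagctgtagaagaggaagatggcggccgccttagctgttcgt
Psmb8, chr20:4656982-4657281, minus strand: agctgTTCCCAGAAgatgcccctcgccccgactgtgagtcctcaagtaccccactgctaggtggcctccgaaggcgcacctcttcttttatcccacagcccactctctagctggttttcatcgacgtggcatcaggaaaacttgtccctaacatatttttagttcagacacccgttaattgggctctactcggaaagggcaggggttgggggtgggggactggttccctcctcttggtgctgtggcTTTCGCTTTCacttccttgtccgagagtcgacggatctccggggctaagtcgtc
Psmb10, chr19:50743243-50743542, minus strand: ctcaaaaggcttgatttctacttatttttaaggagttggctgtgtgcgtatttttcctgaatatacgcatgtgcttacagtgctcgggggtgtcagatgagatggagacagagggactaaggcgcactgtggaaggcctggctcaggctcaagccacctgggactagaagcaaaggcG69.5GTG69.5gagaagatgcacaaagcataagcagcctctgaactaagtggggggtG69.5GCG69.5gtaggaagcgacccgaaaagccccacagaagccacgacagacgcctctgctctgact
Psme2, chr15:33052702-33053001, minus strand: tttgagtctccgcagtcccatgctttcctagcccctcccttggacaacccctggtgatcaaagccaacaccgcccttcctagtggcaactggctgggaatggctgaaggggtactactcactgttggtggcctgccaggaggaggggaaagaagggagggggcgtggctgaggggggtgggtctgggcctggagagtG69.5GCG69.5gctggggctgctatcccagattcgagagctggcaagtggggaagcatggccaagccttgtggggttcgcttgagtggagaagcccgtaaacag

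In these windows, Psmb5 and Psmb6 each held an antioxidant response core, TGACGTCGC from position -60 and TGACGGAGC from position -24, counted from the first transcribed base as 1. Psmb10 held 2 interferon-stimulated cores, GAAAGTGAAA from position -73 and GAAAGCGAAA from position -17. Psme2 held 1, GAAAGCGAAA from position -53. Psmb8 held an interferon-stimulated core on the opposite strand that spans the start, from position -4, and a gamma-activated site from position -245. Psmb7 and Psmb9 held none of the 3. Psmb9 lies beside Tap1, a peptide transporter gene of the major histocompatibility region on chromosome 20, on the opposite strand, and their windows share 44 bases. The Tap1 window held an interferon-stimulated core. Psmb8, Tap1 and Psmb9 follow each other with no other protein-coding gene between them.

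Across all 43 members with a promoter in the table, 8 (18.6%) held the antioxidant core, against 12.1% of 33469 promoters of the same length and 14.8% of the 7534 that belong to genes tested here. The 8 were Psma3, Psmb2, Psmb5, Psmb6, Psmd1, Psmd3, Psmd9 and Psme4. The interferon-stimulated core was in 7 members (16.3%), against 3.92% of all promoters and 3.25% of those of tested genes, namely Psma4, Psmb3, Psmb8, Psmb10, Psmd7, Psme2 and Psmg4. The gamma-activated site was in 4 members (9.30%), Psmb8, Psmc6, Psmd3 and Psmd7, against 8.87% of all and 6.88% of those of tested genes. A CCAAT box was in 22 members (51.2%), against 37.5% of all and 38.5% of those of tested genes. These are matches of letters and were not tested as binding sites, and the symbol pattern did not use them.

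The standard catalytic subunits had nearly parallel values. Psmb5, whose product cuts after hydrophobic residues, had levels of 6.51, 6.81, 6.75 and 6.54 on replicates 1 to 4, with a mean of 6.65 ± 0.15 (SD, n = 4). Psmb6, whose product cuts after acidic residues, had 6.45, 6.75, 6.67 and 6.49, with a mean of 6.59 ± 0.14. Psmb7, whose product cuts after basic residues, had 4.72, 5.25, 5.06 and 5.06, with a mean of 5.02 ± 0.22. Each of the 3 was highest on replicate 2 and lowest on replicate 1. A second Psmb6 probe had 6.45, 6.60, 6.50 and 6.42, within 0.17 of the first on every array, although it was lowest on replicate 4 and not on replicate 1.

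The immunoproteasome subunits were detected as broadly. The labels name no interferon treatment, and without unexposed arrays the level of these subunits before carbon black is not known. Psmb8, the counterpart of Psmb5, had levels of 6.19, 6.48, 6.38 and 6.37, with a mean of 6.36 ± 0.12. Psmb9, the counterpart of Psmb6, had 5.62, 5.89, 5.68 and 5.58, with a mean of 5.69 ± 0.14. Psmb10, the counterpart of Psmb7, had 5.30, 5.36, 5.20 and 4.97, with a mean of 5.21 ± 0.17. All 3 were highest on replicate 2, as the standard subunits were. Psmb8 was lowest on replicate 1, while Psmb9 and Psmb10 were lowest on replicate 4.

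How an immunoproteasome subunit moved against the subunit it replaces can be read within each array, because the array's scaling cancels. The difference Psmb8 minus Psmb5 deviated from its own mean by -0.03, -0.03, -0.07 and 0.13 log2 units on replicates 1 to 4, a range of 0.20. Psmb9 minus Psmb6 deviated by 0.06, 0.04, -0.09 and -0.02, a range of 0.15. Psmb10 minus Psmb7 deviated by 0.39, -0.07, -0.05 and -0.27, a range of 0.66. Psmb10 and Psmb7 therefore kept step less closely across these 4 samples than the other 2 pairs, which was not tested. Replicate 1 decides most of that range, which was 0.22 without it, and replicate 4 decides most of the range of Psmb8 minus Psmb5, which was 0.04 without it. The range of Psmb10 minus Psmb7 was 0.66 under each of the 5 other scalings and background corrections too.

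**Figure D2:**
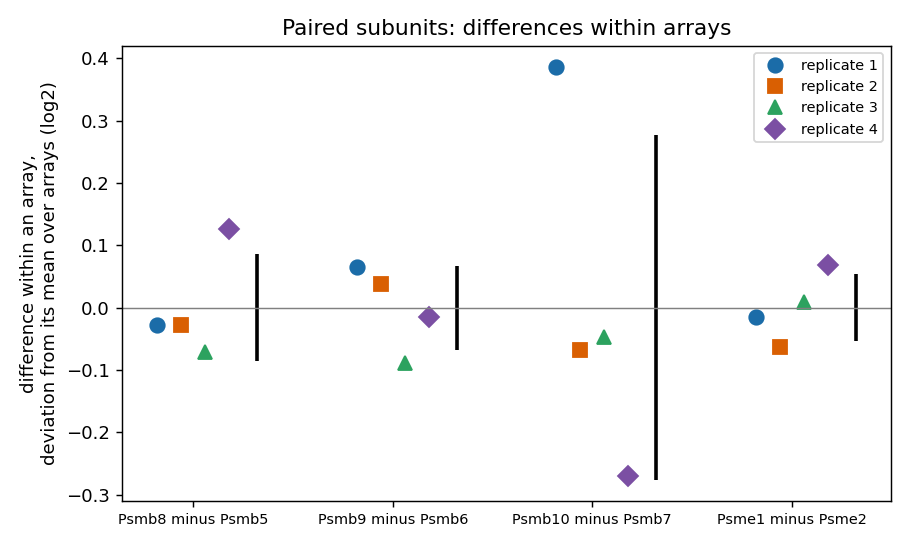
Deviation of the within-array difference between paired subunits from its mean over arrays, in log2 units, for 3 immunoproteasome pairs and for Psme1 minus Psme2. Markers are the 4 replicates and the black bar spans 1 SD on either side of 0; Psmb10 minus Psmb7 runs from -0.27 to 0.39, and the other 3 lie between -0.09 and 0.13.

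The other 4 standard beta subunits shape the inner rings without cutting. Psmb1 had levels of 3.91, 4.39, 4.28 and 4.09, and Psmb3 had 6.95, 7.43, 7.28 and 7.13. Psmb2 had 5.99, 6.20, 6.16 and 6.01, the narrowest spread of the standard beta subunits (SD 0.11), and Psmb4 had 6.59, 6.89, 6.79 and 6.69. By the brightest probe, all 7 standard beta subunits were highest on replicate 2 and lowest on replicate 1. The second Psmb6 probe was lowest on replicate 4. Over all tested genes 38.6% were highest on replicate 2 and 39.5% lowest on replicate 1. Highest on replicate 2 were 5 of 7 with the percentile over detected probes, 6 with that over spots, 6 with quantile normalization and 7 with cyclic loess or normexp. Lowest on replicate 1 were 4 of 7 with quantile normalization and 2 with normexp, the other 5 then being lowest on replicate 4, and 7 under the other 3 scalings.

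Of the alpha subunits, which form the gate, 7 were detected on all arrays. Psma5 varied least of all members, with levels of 5.65, 5.75, 5.67 and 5.65 (SD 0.05), and 2.77% of tested genes had a smaller SD. Psma7 varied most among the detected alpha subunits, with 5.52, 5.91, 5.90 and 5.76 (SD 0.18), followed closely by Psma1 with 5.01, 5.40, 5.33 and 5.34 (SD 0.18). Psma2, Psma3, Psma4 and Psma6 had SDs from 0.08 to 0.15, and Psma2 and Psma4 were highest on replicate 1, against the common pattern. Psma8, a form of alpha subunit known from the testis, stayed below the detection mark on every array, and its levels of -3.95, -4.92, -4.61 and -4.46 are only upper bounds.

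The 6 ATPases that unfold substrates were all detected on every array. Psmc1 varied least, with levels of 7.45, 7.45, 7.36 and 7.28 (SD 0.08), and Psmc2 nearly as little, with 6.50, 6.58, 6.45 and 6.38 (SD 0.08). Psmc4 varied most, with 4.40, 4.79, 4.67 and 4.73 (SD 0.17), its value on replicate 1 lying below the others. Psmc6 was lowest on replicate 2, where most members were highest, with 0.919, 0.754, 1.102 and 1.015. Psmc3 and Psmc5 had SDs of 0.14 and 0.12. A second probe of Psmc1 was dimmer by 2.69 log2 units on average and had 4.57, 4.77, 4.69 and 4.76, lowest on replicate 1, where the first was highest. The difference between these probes ranged from 2.52 to 2.88 over arrays, so the order of arrays for Psmc1 depends on the probe.

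Among the 11 non-ATPase cap subunits, 9 were lowest on replicate 1, against 39.5% of tested genes and 41.3% of the named ones. With normexp background correction, however, 1 was lowest on replicate 1 and 6 on replicate 4. The large scaffold subunit gene Psmd1 varied least, with levels of 7.27, 7.26, 7.18 and 7.14 (SD 0.06), and it was highest on replicate 1. Psmd14, which encodes the deubiquitinase that strips ubiquitin from substrates, varied most, with 3.36, 3.84, 3.72 and 3.84 (SD 0.23). The unadjusted p of that spread was 0.123, and the adjusted p was 0.987 (limma). Psmd4, which encodes a ubiquitin receptor, had 5.57, 5.80, 5.79 and 5.86. Psmd7, the partner of Psmd14, had 3.55, 3.81, 3.85 and 3.82, with replicate 1 apart from the other 3, a gap that 5.83% of tested genes also showed on some array. Psmd2, Psmd3, Psmd6, Psmd8, Psmd11, Psmd12 and Psmd13 had SDs from 0.08 for Psmd12 to 0.20 for Psmd13.

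The chaperones that help build the cap differed in detection. Psmd5 and Psmd9 were detected on all arrays, with levels of 2.14, 2.45, 2.39 and 2.33 and of 3.50, 3.77, 3.72 and 3.69. Psmd10, which encodes gankyrin, was well above background on replicates 2 and 3 at -2.10 and -2.29, while -3.14 and -3.04 on replicates 1 and 4 are only upper bounds. Its SD of 0.52, the widest among tested members, rests on those bounds. For the 20S chaperones, Psmg2 had 1.64, 2.08, 2.00 and 1.88, and Psmg4 had 2.88, 2.91, 2.66 and 2.41. A second Psmg4 probe, made to a predicted transcript, was not well above background on any array. Pomp, the maturation protein that helps the beta rings assemble, lies outside the symbol pattern and had 7.33, 7.58, 7.52 and 7.25, with a mean of 7.42 ± 0.16.

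The activators open the barrel in place of the 19S cap. Psme1 and Psme2 encode the partners of one ring, which interferon-gamma also raises, and had levels of 6.57, 6.73, 6.72 and 6.59 and of 7.07, 7.28, 7.20 and 7.02. Each was measured on 10 spots per array. The means over these spots had SDs of 0.08 and 0.12 between arrays. Single spots of an array had SDs of 0.05 and 0.06, which is an unlike measure. Psme3, which encodes the nuclear activator, had 3.32, 3.58, 3.44 and 3.63. Psme4, which encodes a large nuclear activator that acts as a monomer, had 0.94, 0.55, 0.50 and 0.65, and was highest on replicate 1, where none of the other 4 genes of the group was highest. Psmf1, which encodes an inhibitor of the barrel, had 3.54, 3.70, 3.56 and 3.53 (SD 0.08). The binding partners Psmc3ip and Psme3ip1 had 0.79, 0.94, 0.74 and 0.66 and 1.61, 2.08, 1.95 and 2.17, the latter with an SD of 0.25.

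Spread between replicates was then tested over all genes. For 14925 genes and unnamed transcripts that were well above background on at least 2 arrays, the variance over the 4 arrays was set against that of genes of like level with limma (F test, one-sided upward, Benjamini-Hochberg adjusted). Of the 46 members tested, all but Psma8, 0 passed, and the smallest adjusted p was 0.987 (limma). Of all 14925 genes and unnamed transcripts 69 passed, or 0.462%, but of the 8487 named genes among them 8 passed. Without adjustment 0 of 46 members had a p under 0.05, and the smallest was 0.119 for Psme3ip1 (limma). Such a p was found for 5.07% of all 14925 and for 238 of the 8487 named genes. Shares of tested genes in this report include the unnamed transcripts unless named genes are stated. With 4 arrays the test can call few genes, and a p above the threshold does not show equal spread.

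The median SD of the 46 tested members was 0.135 log2 units, against 0.161 over all tested genes, and 32 members lay below the latter, against 50.0% of tested genes. Level goes with this difference. Of the 46 members, 41 had a mean level above the median of tested genes, and 20 fell in the brightest of 10 bins of level, where the median SD was 0.121. Set against the prior for genes of like level, the median ratio of variance to prior was 0.898 for members and 0.852 over all tested genes, and 20 of 46 lay below the latter. Of the 46, 42 spanned less than 0.5 log2 units between their lowest and highest array, against 69.5% of all tested genes and 88.7% of those above the median level. For the 10 members with repeated spots the median SD between arrays, taken on means over spots, was 0.121. Between single spots of an array it was 0.067. The same medians were 0.123 and 0.086 for 1736 detected probes with repeated spots. An SD of means and an SD of single spots are unlike measures, so the part of spot noise cannot be read from them.

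**Figure D3:**
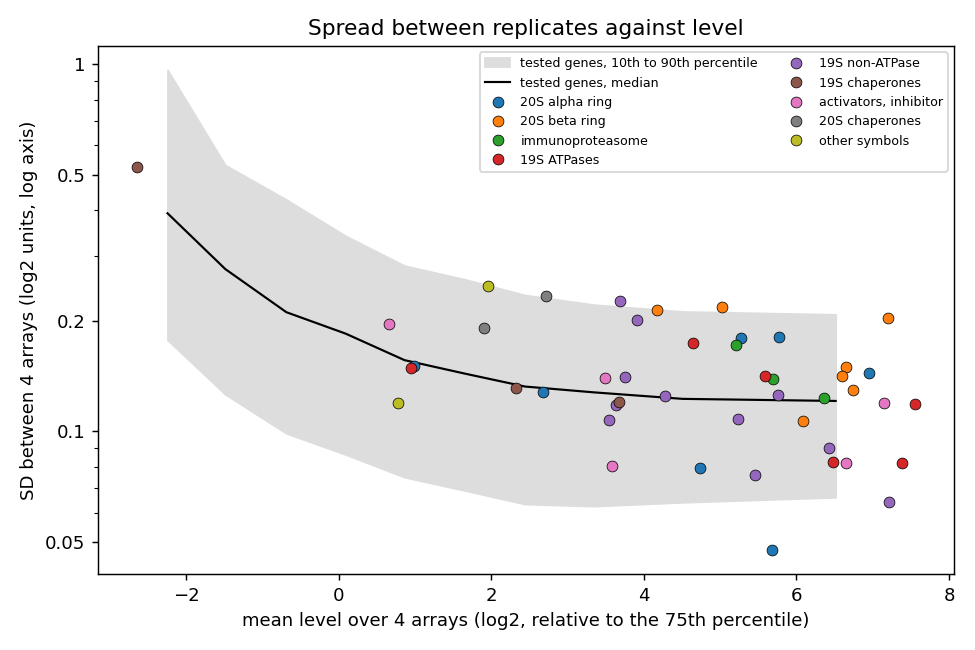
SD between the 4 arrays (log axis, log2 units) against mean level for the 46 tested members, coloured by role. The black line is the median of tested genes in 10 bins of level and the grey band their 10th to 90th percentile; Psmd10 stands alone at low level with an SD of 0.52, and Psma5 has the lowest SD, 0.05.

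The order of the arrays was then counted, with no test, member by member. Of 46, 33 were highest on replicate 2, against 38.6% of tested genes, and 29 were lowest on replicate 1, against 39.5%. Highest on replicate 2 and lowest on replicate 1 at once were 22 members, against 17.5% of tested genes. Psmb5, Psmb7 and, by its brightest probe only, Psmb6 were among them. Highest on replicate 4 were 5 members, against 20.4% of tested and 18.6% of named genes. On replicate 1 these were also 5, against 21.9% and 18.7%. The median deviation of members from their own means was -0.14, 0.13, 0.04 and -0.03 on replicates 1 to 4. Tested genes had medians of -0.05, 0.07, 0.01 and -0.02, so that the whole array moved the same way to a smaller extent. The named ones among them had -0.05, 0.08, 0.01 and -0.03. Relative to the median tested gene, members stood at -0.09, 0.06, 0.02 and -0.01, with 32 of 46 below it on replicate 1 and 35 of 46 above it on replicate 2. Replicate 1 is the array with the highest background, and the part of that background in the order was not tested. Most members are brighter than the median tested gene, and the part of level in the order was not tested either.

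The order across arrays changed with scaling and background correction. With the percentile taken over detected probes, 17 of 46 members were highest on replicate 2, against 18.2% of tested genes, and 29 were lowest on replicate 1, against 31.4%. Under that scaling 15 members were highest on replicate 4, against 30.9% of tested genes. With normexp correction of raw medians, members stood 0.01 above the median tested gene on replicate 1 and 0.10 below it on replicate 4, and 7 of 46 were lowest on replicate 1, against 27.6% of tested genes, and 31 on replicate 4, against 40.6%. On replicate 2 members stood above the median tested gene under all 6 scalings and corrections tried, by 0.02 with quantile normalization to 0.14 with normexp.

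**Figure D4:**
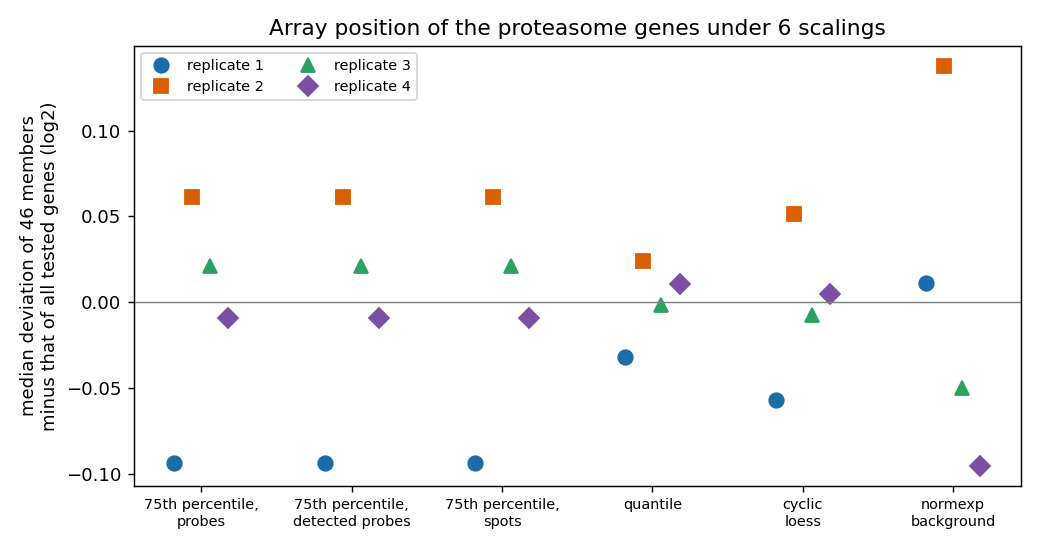
Median deviation of the 46 tested members minus that of all tested genes, in log2 units, for each array (markers) under 6 scalings or background corrections. Replicate 2 lies above 0 in each, between 0.02 and 0.14; replicate 1 lies at -0.09 in the first 3 and at 0.01 with normexp.

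By role, the movement differed in detail. Relative to the median tested gene, the standard beta subunits had medians of -0.11, 0.09, 0.06 and -0.05 on replicates 1 to 4, and the non-ATPase cap subunits -0.10, 0.01, 0.01 and 0.06. Replicate 4 was thus on opposite sides for these 2 groups, with 6 of 7 standard beta subunits below the median tested gene and 8 of 11 non-ATPase subunits above it. The same sides held with quantile normalization (-0.03 and 0.09) and cyclic loess (-0.03 and 0.08), but with normexp both groups lay below, at -0.15 and -0.04. The standard beta subunits stood above the median tested gene on replicate 2 under every scaling and correction tried, by 0.05 to 0.20, while on replicate 3 they lay at -0.02 with normexp. On replicate 1 the medians of these groups were -0.01 and 0.00060 with normexp, with 4 of 7 and 5 of 11 genes below. The non-ATPase median on replicate 2 was 0.11 with normexp and -0.04 with quantile normalization. The immunoproteasome subunits had -0.03, 0.09, -0.02 and -0.09, and the ATPases 0.01, 0.05, 0.01 and -0.04. On replicate 1 the immunoproteasome subunits lay above the median tested gene with normexp (0.08) and quantile normalization (0.02), and the ATPases lay below it on replicate 3 with normexp, quantile normalization and cyclic loess. These medians are over 3 to 11 genes on single arrays, and differences between them were not tested.

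**Figure D5:**
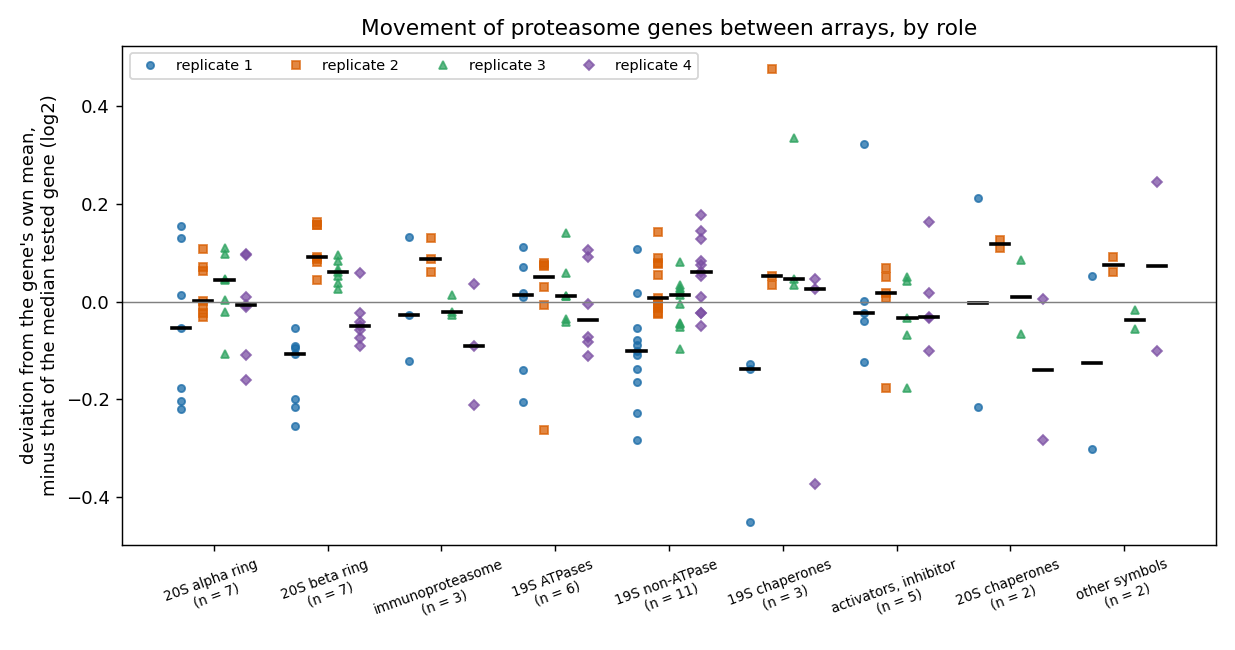
Deviation of each of the 46 tested members from its own mean, minus the deviation of the median tested gene, in log2 units, by role and array. Markers are genes, black bars the median of a role on an array, and n is the number of genes; the standard beta subunits lie below 0 on replicate 1 and above 0 on replicates 2 and 3.

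The listed genes of the surrounding pathway were detected as widely, against 48.0% of all named genes. These lists were chosen with earlier results known. Of 25 listed genes of assembly, ubiquitin delivery and control outside the symbol pattern, 19 were matched to a probe and 18 were well above background on all arrays, among them the polyubiquitin gene Ubb (9.76 ± 0.11), the ubiquitin-activating enzyme gene Uba1 (6.98 ± 0.07) and the unfoldase gene Vcp (5.90 ± 0.18). Ddi2, the protease that activates NRF1, was well above background on 3 arrays. The gene of NRF1 itself, Nfe2l1, was not matched to a probe, while that of NRF2, Nfe2l2, had levels of 4.48, 4.66, 4.56 and 4.47. Of 15 listed genes of peptide loading and interferon control, 13 were measured and 13 were detected on all arrays. Tap1 had 1.53, 1.96, 1.78 and 2.01, Tap2 had 4.06, 4.39, 4.07 and 3.90, and B2m, the light chain of class I molecules, had a mean of 8.52 ± 0.06. The interferon response factor Irf1 had 3.60, 3.68, 3.56 and 3.39. In the variance test over all genes 0 of these 32 passed (smallest adjusted p 0.961, limma), against 8 of 8487 named genes. Pdia3 had the only unadjusted p under 0.05, at 0.045 (limma), against 238 of the 8487.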

How the data were processed

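One-colour Agilent rat arrays from 4 samples of 1 group were analysed. The deposited files hold, per spot, intensity on a linear scale, which the authors obtained with Agilent Feature Extraction 11.0.1.1, per the submitters' processing notes. Per the file headers, that software subtracted background, removed spatial trends and put a small positive value in place of low signals; arrays were not normalized against each other. The software's own marks (column type other) gave detection.

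From these, the spots of a probe were averaged on the log2 scale, without control spots and spots marked non-uniform (1, 7, 0 and 6 on replicates 1 to 4), and each array was scaled to the 75th percentile of its probes. Accessions without versions were matched to RefSeq genes of GRCr8, which named 21109 probes (46.3%). The brightest probe stood for a gene, and a gene was detected if any probe was. Probe sequences were not used, so binding of a probe to a pseudogene transcript was not tested. The variance test used lmFit and squeezeVar (trend on level, not robust) of limma 3.58.1 in R 4.3.3 and left out genes without a value on every array. The script was checked on simulated levels. Precision is limited by the 4 arrays. Pearson correlations across tested genes, which are not independent, were 0.981 to 0.993 between arrays. All files come from 1 group, so slide and scan could not be set against a group.

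Members and lists were chosen with earlier results of these data known. Named with values on each array were the catalytic, immunoproteasome, activator, inhibitor and assembly genes, the least and most variable detected member of each role, members not detected on all arrays, members with an unadjusted p under 0.05, and members whose probes disagreed in detection or of which 1 array stood apart. Psmb1, Psmb3, Psmb4, Psma1, Psmc2, Psmc6, Psmd4 and the genes outside the pattern other than Pomp were added after their values were seen. Alternatives were other scalings, background correction, filters, probe rules and priors, and leaving out each replicate. The planned background correction on mean signals was not run, and medians were used in its place, chosen after seeing the data. A planned comparison of protein sequences was not run. Values of some listed pathway genes outside the symbol pattern are not reported here.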

Additional observations from a re-analysis of the deposited data

Results flagged for a closer look

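Psmd7, the partner of the cap deubiquitinase, had 1 array standing apart among its 4. Its level on replicate 1 was 3.55 against 3.81 to 3.85 on the others, and the gap took 0.87 of its range, above Dixon's 95% critical value for 4 values. It was the only such case among the 46 members with signal on at least 2 arrays, against 5.83% of all tested genes, and chance gives about 1 in 20. Outside the symbol pattern, Ngly1 (0.894) and Pdia3 (0.868) stood apart on replicate 1, where they were lowest.

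The arrays differed in quality measures. The 99th percentile of negative controls (0.89) and the lowest processed intensity marked well above background, 22.3 against 10.8 to 12.1 (0.89), set replicate 1 apart, and the number of detected probes (0.846) set replicate 2 apart as the highest, at 18641. With scaling to the 75th percentile of all probes, these are the arrays on which most members were lowest and highest. With normexp, 31 of 46 were lowest on replicate 4. With the percentile over detected probes, 17 of 46 were highest on replicate 2. The part of these quality measures in the order was not tested.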

How the results depend on the processing

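No paired analysis was possible because all samples belong to 1 group. Detection is the scanner software's mark, which the scalings, filters and priors cannot alter. Over the 14 alternatives run, 0 members passed the variance test in each, and 641 single-member adjusted p-values were at least 0.691 (limma). The median SD of members lay between 0.093 and 0.180. The count of 69 among all genes and unnamed transcripts changed with the processing. It was 0 with the percentile over detected probes, 0 with that over spots, 1 with quantile normalization and 42 with cyclic loess. It was 237 with normexp, 356 with dim probes kept, 207 when the prior was robust and 0 without a trend in the prior. When 1 replicate was left out it was 27 to 162. The cause was not tested. Without the filter the median SD of tested genes was 0.327, since dim genes then enter. With normexp the members' median deviation on replicate 1 was 0.031 in place of -0.14. Leaving out 1 replicate gave ranges of 0.044 to 0.196 for Psmb8 minus Psmb5, 0.0802 to 0.153 for Psmb9 minus Psmb6 and 0.22 to 0.657 for Psmb10 minus Psmb7. Signal limits Psma8 and Psmd10, which lie at or near background.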
